A study of Mus musculus with 10 samples.

Results

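Insulin, insulin-like growth factor 1 (IGF1) and the PI3K-Akt-mTOR cascade are described here through 8 genes, Igf1, Igf1r, Insr, Irs2, Pik3ca, Pik3r1, Akt1 and Mtor. All probe sets annotated with exactly 1 of these symbols were taken, which gave 9 probe sets (Insr has 2) of 21789 with a single symbol, for 8 of 19938 genes. The arrays measured whole brain of adult male offspring (strain C57BL/6J, postnatal day 70) in both treatment groups. Ethanol mice were born to mothers with access to 10% ethanol in water through gestation and until pup postnatal day 10, and control mice to mothers that had water alone. Experiment 1 had 2 ethanol and 2 control arrays, each with pooled RNA of 3 mice (1 pool per array), and experiment 2 had 3 ethanol and 3 control arrays, each with pooled RNA of 2 mice. The pools held different mice (12 in each experiment), but shared litters between pools are not described in the sources used here, so p-values rest on the spread from pool to pool.

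IGF1 and insulin bind receptor tyrosine kinases (the products of Igf1r and Insr), which phosphorylate adaptors such as the product of Irs2. The adaptors recruit phosphoinositide 3-kinase (PI3K), the lipid it makes brings Akt to the membrane, and Akt relieves the TSC brake on Rheb, which switches on mTOR complex 1 and protein synthesis. In the brain the cascade is known for its part in neuronal growth and survival, myelination and synaptic plasticity, and it acts mostly through phosphorylation, which transcript arrays do not measure.

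The tissue label was checked against marker genes. The mean level of 5 neuronal markers was between 12.4 and 12.5 log2 units on all 10 arrays, and that of 2 liver markers was between 5.65 and 5.92. Array medians were between 6.99 and 7.05 log2 units and correlations between arrays between 0.989 and 0.996. The mean of every probe set was the same in both experiments to within 5.83e-05 log2 units, so levels cannot be compared between experiments and all comparisons here are ethanol against control within an experiment. Each difference is the ethanol mean minus the control mean in log2 units, tested with limma and adjusted by the Benjamini-Hochberg method over the 21789 probe sets. At adjusted p under 0.05, limma called 0% of these within experiment 1, 0% within experiment 2, 0% over both experiments and 0% for the difference between the experiments. Brightly measured genes leaned downward across the table. Among the probe sets in the top 25% by mean level, 67.2% had a negative difference in experiment 1, 73.2% in experiment 2 and 77.5% over both, with medians of -0.036, -0.041 and -0.039. Of the 9 probe sets described here, 7 lie in that top 25% and the other two, Igf1 and Irs2, in the next 25%, where 70.7%, 71.0% and 77.3% were negative.

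None of the 8 genes passed an adjusted p of 0.05 in any comparison. The values that stood out at an unadjusted p under 0.05 were those of Insr, which was lower on the ethanol arrays of experiment 1 and had positive differences in experiment 2, and of Akt1, which was lower over both experiments. Igf1, Pik3ca, Pik3r1 and Mtor had differences over both experiments of less than 0.01 log2 units in size. The levels of all 9 probe sets on every array are shown first, followed by each gene in the order of the cascade.

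**Figure D1:**
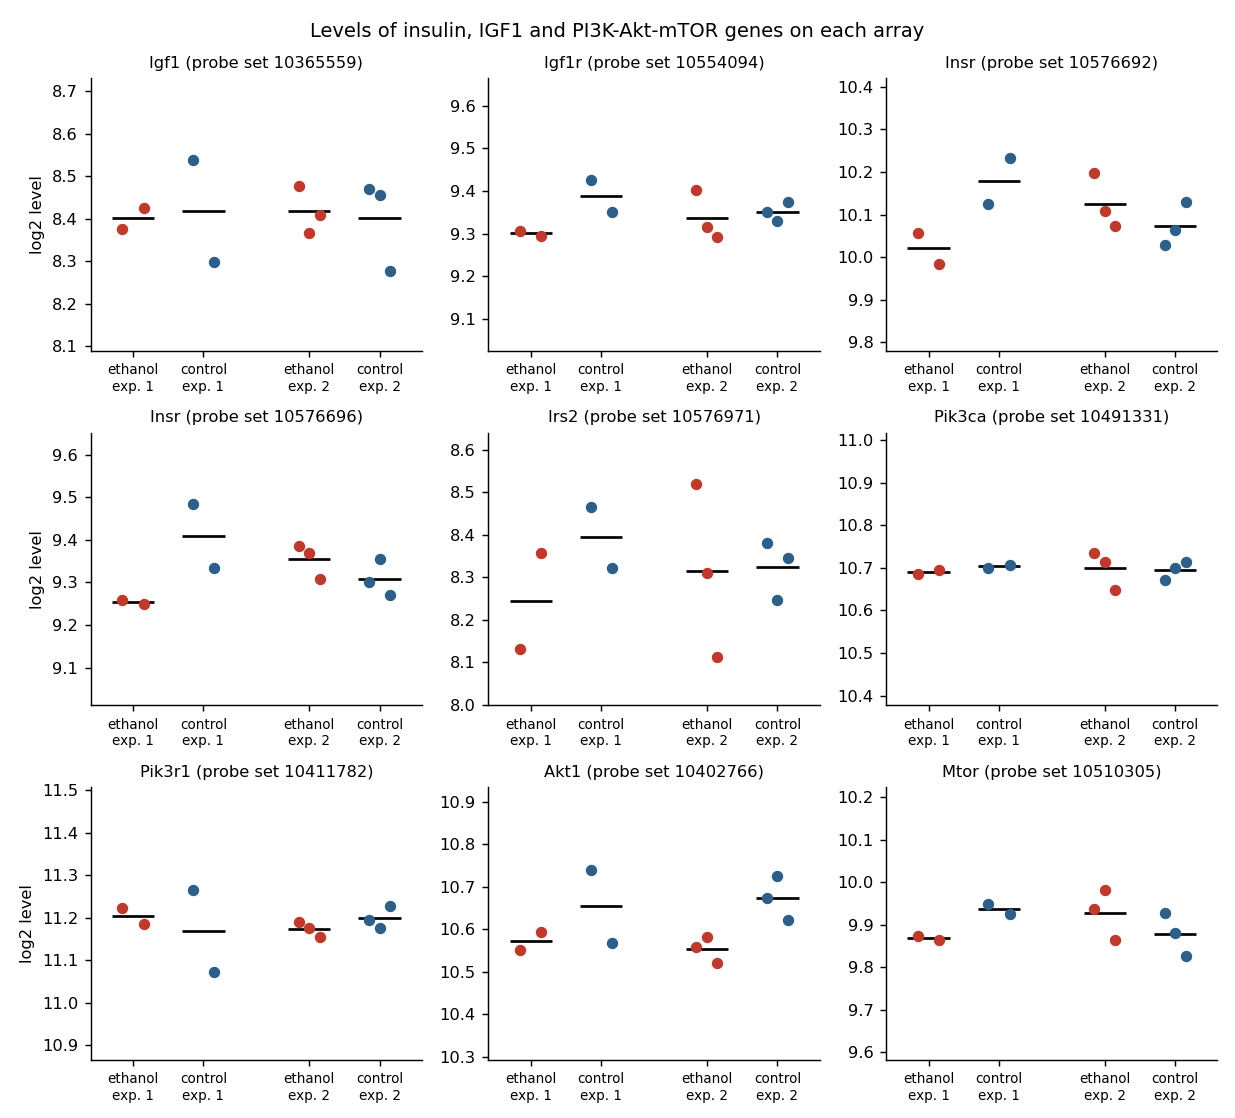
Log2 level of each probe set on each array (red points, ethanol; blue points, control; bars, group means), with panels of equal height in log2 units. Both ethanol arrays of experiment 1 lie below both controls for Insr, Igf1r, Mtor and Pik3ca, and all 3 ethanol arrays of experiment 2 lie below all 3 controls for Akt1.

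Igf1 encodes the secreted growth factor, which in the brain comes from neurons and glia as well as from the circulation. On the ethanol arrays of experiment 1 Igf1 had log2 levels of 8.38 and 8.42, against 8.54 and 8.30 on the controls. In experiment 2 the ethanol arrays had 8.48, 8.37 and 8.41, and the controls 8.47, 8.46 and 8.28. Ethanol and control arrays overlapped in both experiments, and the highest and the lowest level of experiment 1 were both on control arrays. The difference was -0.018 ± 0.091 (SE) in experiment 1, 0.016 ± 0.074 in experiment 2 and 0.0025 ± 0.055 over both (5 ethanol and 5 control arrays; limma adjusted p = 0.991). The interval over both experiments, at 95% confidence, went from -0.12 to 0.12 log2 units, or from 0.922-fold to 1.09-fold. In bulk tissue a smaller number of cells of a type and less RNA per cell cannot be told apart, here or in any value below.

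Growth hormone, encoded by Gh in the anterior pituitary, drives Igf1 transcription in liver. Gh had log2 levels of 12.0 and 10.7 in the ethanol pools of experiment 1, against 6.22 and 6.40 on the controls. In experiment 2 it had 7.75, 13.5 and 7.63 on the ethanol arrays, against 7.51, 7.15 and 9.48 on the controls. Gh was thus at 10 or above on 3 of the 5 ethanol arrays, on which Igf1 had 8.38, 8.42 and 8.37. Prl, prolactin, followed the same arrays, at 10.4 and 8.88 in the ethanol pools of experiment 1 and 11.7 in ethanol pool 2 of experiment 2. All 7 anterior pituitary markers had positive differences over both experiments. Their mean per array in experiment 1 was 8.10 and 7.23 on ethanol arrays against 5.63 and 5.77 on controls. In experiment 2 it was 6.23, 8.68 and 6.25 on ethanol arrays against 6.21, 6.14 and 6.57 on controls, so that ethanol array 2 alone was above the controls. Socs2, an inhibitor that growth hormone signalling induces, differed by -0.048 over both by its brighter probe set (limma unadjusted p = 0.411). Its dimmer probe set, 10372069, differed by -0.125 in experiment 1, 0.099 in experiment 2 and 0.0091 over both. Ghr, the growth hormone receptor, differed by -0.037 over both (limma unadjusted p = 0.539). The part of pituitary tissue in any value below was not tested.

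**Figure D2:**
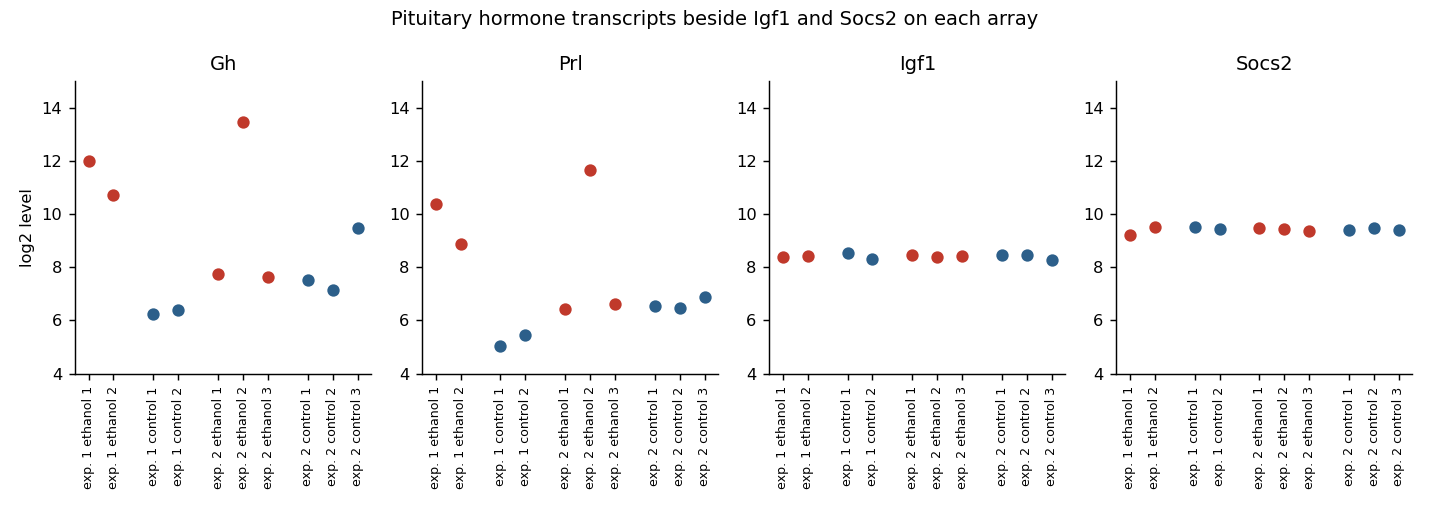
Log2 levels of Gh, Prl, Igf1 and Socs2 (by its brighter probe set) on each array, on the same axis (red, ethanol; blue, control). Gh and Prl are high on ethanol arrays 1 and 2 of experiment 1 and ethanol array 2 of experiment 2, while Igf1 stays between 8.28 and 8.54 on all arrays.

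Igf1r encodes the IGF1 receptor, and its product binds IGF1 and IGF2 more tightly than insulin. Its log2 levels were 9.31 and 9.29 in the ethanol pools of experiment 1, against 9.43 and 9.35 on the controls. In experiment 2 they were 9.40, 9.32 and 9.29 on the ethanol arrays, against 9.35, 9.33 and 9.38 on the controls. The groups did not overlap in experiment 1, with ethanol lower, and overlapped in experiment 2, where the highest and the 2 lowest levels were all on ethanol arrays. The difference was -0.089 ± 0.063 in experiment 1, -0.014 ± 0.052 in experiment 2 and -0.044 ± 0.040 over both (limma unadjusted p = 0.296, adjusted p = 0.654). Of the 5 ethanol arrays, 4 lay below the control mean of their experiment.

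Insr encodes the insulin receptor and is measured by 2 probe sets, 10576692 and 10576696. For probe set 10576692 the ethanol arrays of experiment 1 had log2 levels of 10.06 and 9.98, against 10.13 and 10.23 on the controls. In experiment 2 the ethanol arrays had 10.20, 10.11 and 10.07, against 10.03, 10.06 and 10.13 on the controls. The ethanol levels were below both controls in experiment 1, whereas in experiment 2 the groups overlapped and the highest level was on an ethanol array.

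For probe set 10576696 the ethanol arrays of experiment 1 had 9.26 and 9.25, against 9.48 and 9.33 on the controls. The ethanol arrays of experiment 2 had 9.39, 9.37 and 9.31, against 9.30, 9.35 and 9.27 on the controls. This probe set showed the same arrangement, with no overlap in experiment 1 and overlap in experiment 2.

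In experiment 1 the Insr differences were -0.158 ± 0.070 for probe set 10576692 (limma unadjusted p = 0.0453, adjusted p = 0.549) and -0.154 ± 0.068 for 10576696 (unadjusted p = 0.0441, adjusted p = 0.547). These correspond to 0.896-fold and 0.899-fold of control. In experiment 2 they were 0.052 ± 0.058 and 0.046 ± 0.056 (limma unadjusted p = 0.386 and 0.426). The difference between the experiments was 0.21 ± 0.091 for 10576692 (limma unadjusted p = 0.0404, adjusted p = 0.757) and 0.20 ± 0.088 for 10576696 (unadjusted p = 0.0431, adjusted p = 0.759). It therefore did not pass adjustment over all probe sets for either one. Over both experiments the differences were -0.032 ± 0.052 and -0.034 ± 0.050. Each experiment 1 value leaned on a different control pool. Without control array 2 the difference of 10576692 was -0.104, and without control array 1 that of 10576696 was -0.079 (limma unadjusted p = 0.242 and 0.317, where the lone control array is assumed to vary like the other groups). Quantile normalization of the deposited values gave -0.119 and -0.099 in experiment 1 (limma unadjusted p = 0.154 and 0.123). Across the 10 arrays, after the mean of each experiment was subtracted, the 2 Insr probe sets had a Pearson correlation of 0.465, so that probe sets of 1 gene shared only part of their spread.

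Irs2 encodes an adaptor that links both receptors to PI3K. It is shown with its promoter because its transcription is known to respond to insulin and FoxO factors in liver. The 250 bases before its annotated start, taken from RefSeq on GRCm38.p6 (chr8:11008930-11009179, minus strand), are printed 5′ to 3′. Capitals mark an E-box, CACGTG, 44 bases before the start, and an insulin response element core, CAAAACA, 37 bases before it, which reads TGTTTTG on the printed strand.
Irs2: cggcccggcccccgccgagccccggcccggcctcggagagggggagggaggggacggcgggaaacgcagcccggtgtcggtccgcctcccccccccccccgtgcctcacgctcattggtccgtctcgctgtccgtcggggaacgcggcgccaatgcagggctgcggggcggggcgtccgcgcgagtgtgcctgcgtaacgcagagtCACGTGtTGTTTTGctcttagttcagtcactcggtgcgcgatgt
The motifs do not overlap each other. They were searched on both strands in windows from 250 bases before to 50 after each start, of which 7.15% of 32851 held the E-box and 6.28% the insulin response element core. Such a match is a description of the letters and not of a bound site.

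On the ethanol arrays of experiment 1 Irs2 had log2 levels of 8.13 and 8.36, against 8.47 and 8.32 on the controls. For experiment 2 they were 8.52, 8.31 and 8.11 on ethanol arrays, against 8.38, 8.25 and 8.35 on the controls. The groups overlapped in both experiments, and the highest and the lowest level of experiment 2 were both on ethanol arrays. The difference was -0.15 ± 0.12 in experiment 1 (limma unadjusted p = 0.237), -0.011 ± 0.098 in experiment 2 and -0.066 ± 0.075 over both (limma adjusted p = 0.724). Irs2 had the widest spread within groups of the 9 probe sets, a residual SD of 0.146 log2 units, at the 91.6th percentile of all probe sets tested. Its interval over both experiments reached from -0.229 to 0.096.

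Pik3ca encodes a catalytic subunit of PI3K and Pik3r1 a regulatory subunit that holds it and docks to phosphorylated adaptors. Pik3ca had log2 levels of 10.69 and 10.70 in the ethanol pools of experiment 1, against 10.70 and 10.71 on the controls. In experiment 2 it had 10.73, 10.71 and 10.65 on the ethanol arrays, against 10.67, 10.70 and 10.71 on the controls. The ethanol arrays of experiment 1 were below the controls by a margin that disappears in rounding, and the groups of experiment 2 overlapped. Pik3ca had the narrowest spread of the 9, a residual SD of 0.029 at the 1.29th percentile of all probe sets. Its differences were -0.013 ± 0.059, 0.0030 ± 0.048 and, over both, -0.0034 ± 0.037 (limma adjusted p = 0.979), with an interval over both from -0.083 to 0.076.

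Pik3r1 had log2 levels of 11.22 and 11.19 in the ethanol pools of experiment 1, against 11.26 and 11.07 on the controls. In experiment 2 the ethanol arrays had 11.19, 11.18 and 11.16, against 11.19, 11.18 and 11.23 on the controls. The groups overlapped in both experiments, and in experiment 1 the highest and the lowest level were both on control arrays. The difference was 0.035 ± 0.070 in experiment 1, -0.026 ± 0.057 in experiment 2 and -0.0017 ± 0.044 over both (limma adjusted p = 0.991).

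Akt1 encodes the serine-threonine kinase at the centre of the cascade. Among the 8 genes it had the lowest p over both experiments, and its 2 annotated promoters are therefore shown. Both are on the minus strand of GRCm38.p6 in RefSeq, printed 5′ to 3′ as the 250 bases before each start, at chr12:112674885-112675134 (upstream) and chr12:112674277-112674526 (downstream). Capitals in the first mark the forkhead core TGTTTAC, 161 bases before that start, which 3.65% of 32851 promoter windows held on either strand.
Akt1 upstream: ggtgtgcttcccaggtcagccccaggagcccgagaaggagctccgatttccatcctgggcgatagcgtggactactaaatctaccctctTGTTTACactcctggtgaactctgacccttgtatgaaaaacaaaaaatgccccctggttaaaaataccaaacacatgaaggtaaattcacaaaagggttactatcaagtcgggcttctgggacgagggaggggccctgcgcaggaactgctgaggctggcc
Akt1 downstream: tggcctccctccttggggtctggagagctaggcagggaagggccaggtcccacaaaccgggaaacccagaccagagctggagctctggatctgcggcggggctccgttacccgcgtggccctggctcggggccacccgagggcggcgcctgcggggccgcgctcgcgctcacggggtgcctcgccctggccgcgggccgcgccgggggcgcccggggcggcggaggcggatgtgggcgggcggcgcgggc
The downstream stretch is richer in G and C, 78.4% against 52.0% in the upstream one, with 31 and 7 CpG dinucleotides. In windows that also take in the 50 bases after the start, of which there were 9 for 7 of the 8 genes, the 7 windows other than this upstream one and that of Irs2 held none of the 3 motifs. No window for Insr was used here.

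On the ethanol arrays of experiment 1 Akt1 had log2 levels of 10.55 and 10.59, against 10.74 and 10.57 on the controls. Ethanol arrays of experiment 2 had 10.56, 10.58 and 10.52, against 10.67, 10.72 and 10.62 on the controls. All 3 ethanol arrays of experiment 2 were below all 3 controls, while in experiment 1 control array 2 lay between the ethanol arrays. All 5 ethanol arrays lay below the control mean of their experiment. In experiment 2 the mean of 5 astrocyte markers was also lower without overlap, 10.48 to 10.52 on ethanol arrays against 10.55 to 10.60 on controls. All 5 had negative differences there, though those of Slc1a2 and Slc1a3 were only -0.009 and -0.010. The mean of 5 microglia markers in experiment 2 was 8.08 to 8.13 on ethanol arrays against 8.18 to 8.24 on controls. Of these, 3 had negative differences, while Cx3cr1 and Aif1 differed by 0.0079 and 0.048. The mean of 5 neuronal markers was higher without overlap in experiment 1, at 12.47 and 12.50 on ethanol arrays against 12.40 and 12.44 on controls. It overlapped in experiment 2. In experiment 1 Snap25, Syt1 and Syn1 differed by 0.120, 0.108 and 0.104, Stmn2 by 0.017 and Rbfox3 by -0.042. The part of these cells in the Akt1 values was not tested.

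The Akt1 difference was -0.082 ± 0.071 in experiment 1 (limma unadjusted p = 0.273) and -0.120 ± 0.058 in experiment 2 (unadjusted p = 0.0623, adjusted p = 0.523). Over both experiments it was -0.105 ± 0.044, or 0.930-fold of control with an interval from 0.871-fold to 0.993-fold (limma unadjusted p = 0.0337, adjusted p = 0.375). The experiments differed by -0.038 ± 0.092 (limma unadjusted p = 0.686). The experiment 1 value rested on control array 1, without which it was 0.0037. Over both experiments, leaving out 1 array at a time gave differences from -0.134 to -0.082, with unadjusted p from 0.00809 to 0.0957. Quantile normalization gave -0.071 over both (limma unadjusted p = 0.0876), and centring of each array on its median gave -0.132 (limma unadjusted p = 0.0173).

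Mtor encodes the kinase shared by mTOR complexes 1 and 2. It had log2 levels of 9.87 and 9.86 in the ethanol pools of experiment 1, against 9.95 and 9.92 on the controls. In experiment 2 it had 9.94, 9.98 and 9.86 on the ethanol arrays, against 9.93, 9.88 and 9.83 on the controls. The ethanol arrays were below both controls in experiment 1, and in experiment 2 the groups overlapped with the 2 highest levels on ethanol arrays. The difference was -0.069 ± 0.064 in experiment 1 (limma unadjusted p = 0.308), 0.049 ± 0.053 in experiment 2 (unadjusted p = 0.367) and 0.0021 ± 0.043 over both (adjusted p = 0.989).

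Counted together in experiment 1, 8 of the 9 probe sets had negative differences. The median of the 9 was -0.082, against -0.0045 over all probe sets tested. Among all probe sets at the level of most of these 9, the median was -0.036 and 67.2% were negative. At the next level, that of Igf1 and Irs2, the median was -0.054 and 70.7% were negative. At an unadjusted limma p under 0.05, 2 of the 9 (both Insr) were lower and 0 higher, where 4.93% of all probe sets were lower and 4.02% higher. The groups did not overlap for 5 of the 9, all with ethanol lower, where 19.2% of all probe sets were lower in this way and 15.1% higher. In experiment 2, 4 of the 9 had negative differences, with a median of 0.0030 against -0.011 over all, and -0.041 and -0.050 for those levels. There, 0 were lower and 0 higher by the same threshold, where 6.19% and 3.78% of all were, and Akt1 was the 1 probe set without overlap, where 11.6% of all were lower and 7.62% higher. Over both experiments 1 of the 9 (Akt1) was lower and 0 higher, where 7.68% of all were lower and 4.72% higher. The median of the 9 was -0.032, against -0.0083 over all, and -0.039 and -0.051 for those levels. For the difference between the experiments 0 were lower and 2 (both Insr) higher, where 3.24% and 3.33% of all were. Both Insr entries in these counts come from 1 gene and the same arrays. Lower calls in each experiment and over both were more frequent at the levels of these 9 than over all, with counts given for the wider list below. The split of all probe sets at the unadjusted threshold depended on scaling. In experiment 2 it was 1348 lower and 824 higher, against 1463 and 573 after quantile normalization and 2690 and 325 after median centring. Over both experiments it was 1674 and 1029, against 1375 and 482, and 2945 and 425. For the difference between experiments it was 707 and 725, against 875 and 609, and 1030 and 413.

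**Figure D3:**
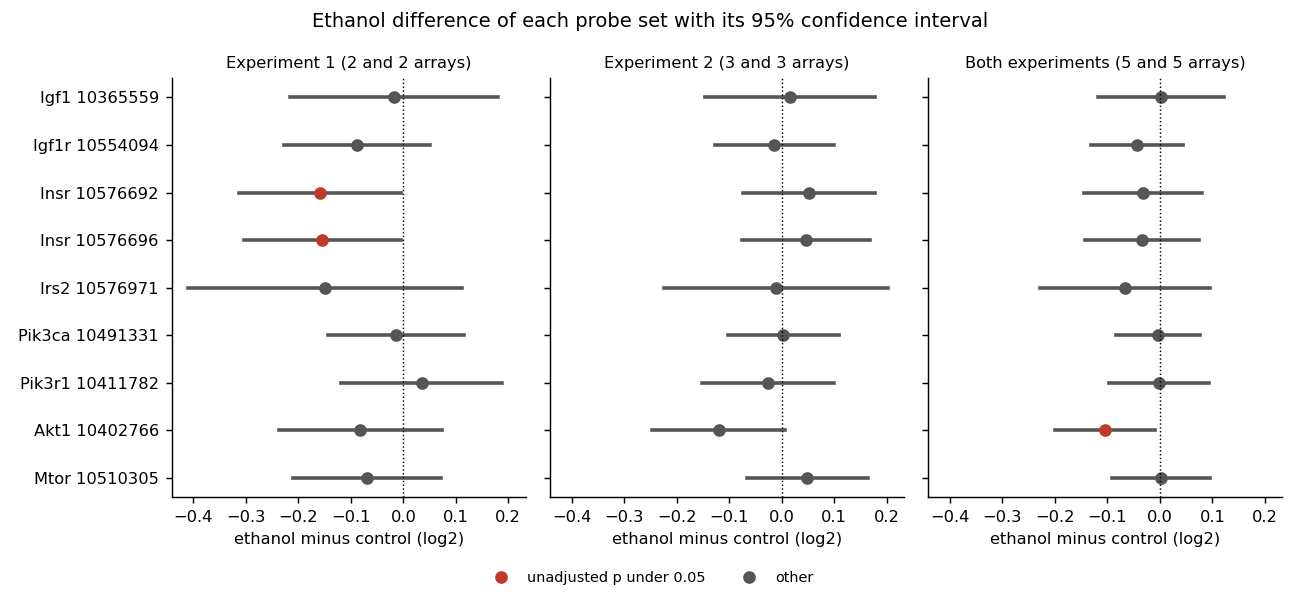
Ethanol minus control difference of each probe set in log2 units (points) with its limma 95% confidence interval (lines), in experiment 1, experiment 2 and over both. The intervals of both Insr probe sets lie below 0 in experiment 1 and cross it in experiment 2, and that of Akt1 lies below 0 over both experiments.

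The 8 genes varied together only loosely from pool to pool. Over the 10 arrays, with the mean of each experiment subtracted, the 35 pairs of probe sets of different genes had Pearson correlations from -0.36 to 0.793, with a median of 0.383, and 30 were positive. The highest was that of Igf1r with Irs2. Pairs of probe sets share the same hybridizations and any shift of a whole array, and the deviations keep any ethanol difference, so these values are descriptions. By the same measure each gene was set against 10592 probe sets with a mean level above the median of all tested. Predicted genes and olfactory or vomeronasal receptors were left out, and the 2 closest probe sets of other genes were named. Akt1 was closest to Lgi3 (0.972), which encodes a secreted leucine-rich protein, and to Insyn1 (0.971), which encodes an inhibitory synapse factor. Insr, by its brighter probe set 10576692, was closest to Mxi1 (0.927) and Ofd1 (0.919), and Igf1r to Fam13b (0.987) and Cux1 (0.955). Irs2 was closest to Proser1 (0.961) and Usp21 (0.951), and Mtor to Gemin7 (0.961) and Scap (0.920). Igf1 was closest to Rpl28 and Cav2 (0.930 for each), Pik3ca to Etfdh (0.931) and Zmym5 (0.928), and Pik3r1 to Elmod1 (0.934) and Paqr7 (0.930). Each is among the 2 highest of up to 10592 correlations over 10 arrays.

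Around these 8 genes, 94 other genes of the cascade, each measured by a probe set with 1 symbol, were grouped by role. The probe set with the highest mean stood for each gene. None of the 94 passed an adjusted limma p of 0.05. At an unadjusted p under 0.05, 9 were lower and 1 higher in experiment 1, where 4.93% of all probe sets were lower and 4.02% higher. In experiment 2, 11 were lower and 1 higher, where 6.19% and 3.78% of all were, and over both 13 were lower and 1 higher, where 7.68% and 4.72% of all were. These shares are the background for the counts by role below. Lower calls were more frequent in the top 25% by mean level and the next 25%, where most of these genes lie. In experiment 1, 387 of 5447 probe sets of the top 25% were lower and 12 higher, and 531 and 62 of 5447 in the next 25%. For experiment 2 these counts were 389 and 76, and 630 and 133. Over both they were 571 and 28, and 833 and 70. Medians of the 94 genes were -0.025, -0.046 and -0.047, and 59, 70 and 72 of them had negative differences. Of the 94, 35 lie in the top 25% by mean level and 39 in the next 25%, where 77.5% and 77.3% of probe sets were negative over both, with medians of -0.039 and -0.051. For the difference between the experiments 3 of the 94 were lower (Igf2, Irs4 and Inpp5d) and 2 higher (Pik3c2b and Rictor), where 3.24% and 3.33% of all were.

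**Figure D4:**
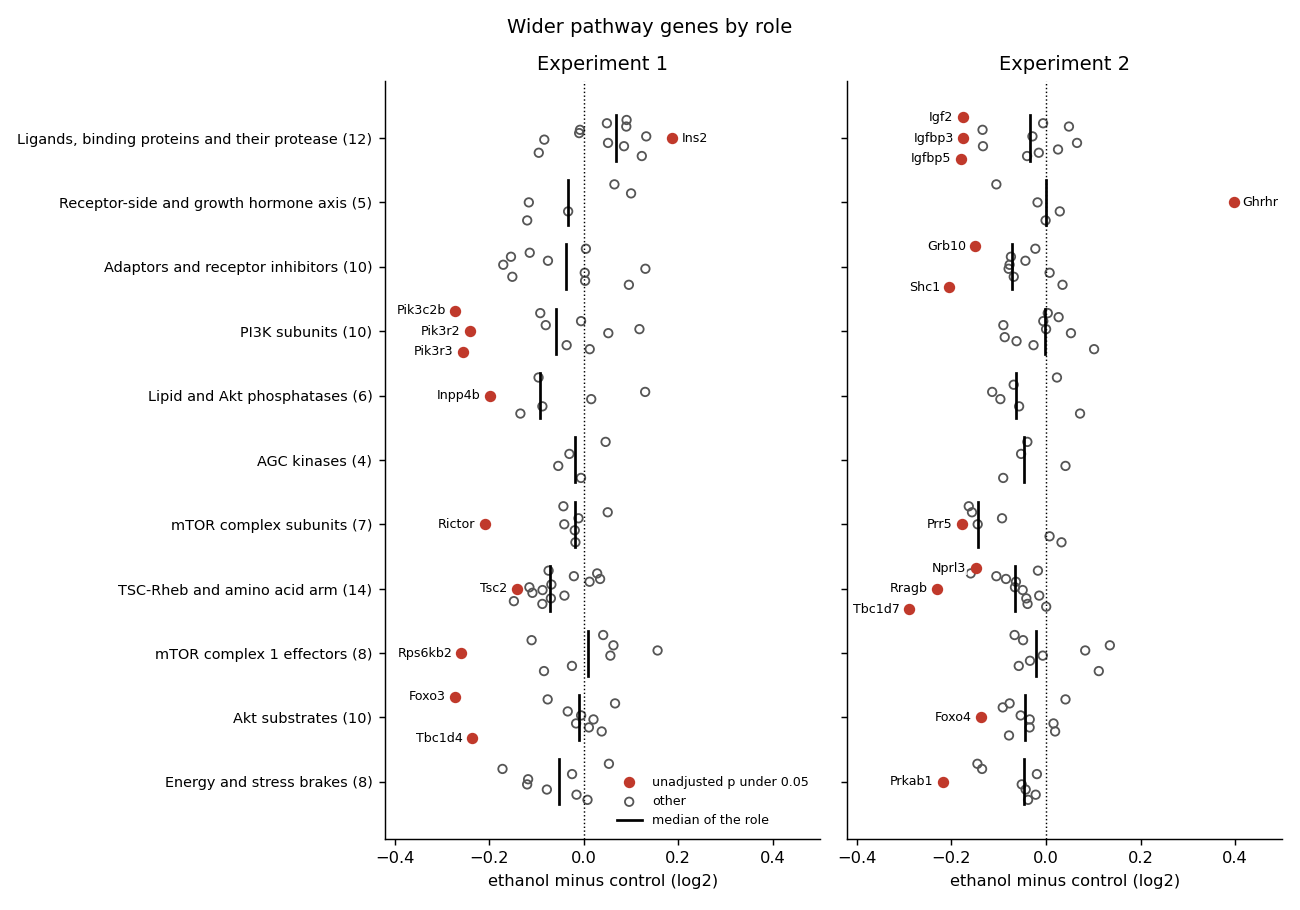
Ethanol minus control difference in log2 units of each of the 94 other genes of the cascade, by role (number measured in parentheses), in experiment 1 and experiment 2. Filled points have an unadjusted limma p under 0.05 and bars are medians of a role. Filled points include 3 PI3K subunits in experiment 1, and 3 ligands or binding proteins and 3 genes of the TSC-Rheb and amino acid arm in experiment 2.

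Ligands, their binding proteins and the protease that frees them had median differences of 0.068 in experiment 1 and -0.034 in experiment 2. Of 12 measured, 0 were lower and 1 higher in experiment 1, and 3 were lower and 0 higher in experiment 2, at an unadjusted limma p under 0.05. Igf2, the fetal growth factor that adult brain makes mainly in choroid plexus and meninges, had log2 levels of 9.65, 9.60 and 9.51 in the ethanol pools of experiment 2, against 9.79, 9.79 and 9.72 on the controls. These groups did not overlap, and the difference was -0.177 ± 0.057 (limma unadjusted p = 0.00967, adjusted p = 0.380). In experiment 1 Igf2 had 9.67 and 9.78 on the ethanol arrays, against 9.66 and 9.60 on the controls, a difference of 0.091 ± 0.070. The difference between the experiments was -0.267 (limma unadjusted p = 0.0123, adjusted p = 0.678).

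Igfbp5 and Igfbp3, which encode proteins that bind IGFs and limit or prolong their action, had differences of -0.181 ± 0.064 and -0.175 ± 0.059 in experiment 2 (limma unadjusted p = 0.0154 and 0.0127). Over both experiments they had -0.142 and -0.109. Ins2, an insulin gene of mouse, differed by 0.187 ± 0.071 in experiment 1 (limma unadjusted p = 0.0230) and 0.025 in experiment 2, and its mean level lies in the lowest 25% of the table.

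Marker genes of the choroid plexus and meninges were also low on the ethanol arrays of experiment 2. In experiment 2 all 6 choroid plexus markers had negative differences, with a median of -0.308, and their mean per array was 8.86 to 9.05 on ethanol arrays against 9.17 to 9.30 on controls. All 5 markers of meninges and fibroblasts were also negative there, with means of 7.80 to 7.83 on ethanol arrays against 7.97 to 8.15 on controls. In experiment 1 the choroid plexus means were 9.05 to 9.10 on ethanol arrays and 9.11 to 9.13 on controls, and those of the meninges were 7.83 to 7.99 and 7.93 to 7.95. In experiment 2 the means of astrocyte and microglia markers were lower as well, as given with Akt1. Differences were negative for 5 of 5 and 3 of 5 of these markers. The part of these tissues and cells in the Igf2, Igfbp3 and Igfbp5 values was not tested.

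On the receptor side, 0 of 5 genes were lower, and 1 was higher in experiment 2 and over both. This was Ghrhr, which encodes the pituitary somatotrophs' receptor for growth hormone releasing hormone. It had log2 levels of 7.43, 7.60 and 7.58 in the ethanol pools of experiment 2, against 7.09, 7.04 and 7.30 on the controls, without overlap. The difference was 0.397 ± 0.093 in experiment 2 (limma unadjusted p = 0.00125, adjusted p = 0.298), 0.10 ± 0.11 in experiment 1 and 0.278 ± 0.081 over both (limma adjusted p = 0.306). On the ethanol arrays of experiment 2, Gh had 7.75, 13.5 and 7.63. In experiment 1, where Gh had 12.0 and 10.7 on the ethanol arrays, Ghrhr had 7.52 and 7.26, against 7.18 and 7.40 on the controls. The part of pituitary tissue in the Ghrhr values was not tested.

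Of 10 adaptors and receptor inhibitors, 0 passed the unadjusted threshold in experiment 1 and 2 were lower in experiment 2. Grb10, an adaptor that restrains both receptors, differed by -0.114 ± 0.078 in experiment 1 and -0.150 ± 0.063 in experiment 2, and by -0.136 ± 0.048 over both (limma unadjusted p = 0.0142, adjusted p = 0.332). Its ethanol arrays had 8.71 and 8.74 in experiment 1, against 8.91 and 8.77 on the controls, and 8.62, 8.74 and 8.77 in experiment 2, against 8.94, 8.81 and 8.82 on the controls. The groups did not overlap in either experiment, with ethanol lower. Shc1, which couples the receptors to the Ras pathway, differed by 0.0031 in experiment 1 and -0.205 in experiment 2 (limma unadjusted p = 0.0198). Irs4, an adaptor, differed by 0.131 in experiment 1 and -0.079 in experiment 2, and the difference between the experiments was -0.210 (limma unadjusted p = 0.0340, adjusted p = 0.745).

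PI3K subunits held 3 of the 9 genes lower in experiment 1, of 10 measured. Pik3r3, a regulatory subunit, had log2 levels of 10.11 and 10.22 in the ethanol pools of experiment 1, against 10.46 and 10.39 on the controls, a difference of -0.255 ± 0.069 (limma unadjusted p = 0.00313, adjusted p = 0.366). Pik3r2, another regulatory subunit, had 8.45 and 8.59 on the ethanol arrays, against 8.74 and 8.78 on the controls, a difference of -0.241 ± 0.077 (limma unadjusted p = 0.00903). Pik3c2b, a class II PI3K, had 8.63 and 8.43 on the ethanol arrays, against 8.89 and 8.71 on the controls, a difference of -0.272 ± 0.085 (limma unadjusted p = 0.00824). The groups did not overlap for any of these 3 in experiment 1. In experiment 2 their differences were -0.062, -0.087 and 0.027, and 0 of the 10 passed the unadjusted threshold there. The difference between the experiments was 0.298 for Pik3c2b (limma unadjusted p = 0.0196, adjusted p = 0.701) and 0.193 for Pik3r3 (limma unadjusted p = 0.0509). Pik3ca and Pik3r1, described above, differed by -0.013 and 0.035 in experiment 1.

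Markers of the cerebellum were low on the ethanol arrays of experiment 1. All 6 had negative differences there, with a median of -0.344, and their mean per array was 10.1 and 10.5 on ethanol arrays against 10.67 and 10.68 on controls. In experiment 2 all 6 were negative as well, with a median of -0.111. The groups overlapped in experiment 2, with means of 10.55, 10.54 and 10.22 on ethanol arrays against 10.63, 10.51 and 10.52 on controls. The part of cerebellar tissue in the Insr, Pik3r3, Pik3r2, Pik3c2b or Rictor values of experiment 1 was not tested.

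Among 6 lipid and Akt phosphatases, which oppose the cascade, 1 was lower in experiment 1 and over both. Inpp4b, which removes a phosphate from a lipid derived from the PI3K product, differed by -0.198 ± 0.065 in experiment 1 (limma unadjusted p = 0.0106), by -0.068 in experiment 2 and by -0.120 over both (limma adjusted p = 0.341). Inpp5d, a lipid phosphatase known from immune cells, differed by 0.130 in experiment 1 and -0.114 in experiment 2, without overlap in either, and the difference between the experiments was -0.244 (limma unadjusted p = 0.0302, adjusted p = 0.745). Irs4 and Inpp5d were named after their values were seen. Among 4 AGC kinases, each by its brightest probe set, 0 passed in either experiment. By the same probe sets, the lowest p over both was that of Sgk3, a kinase related to Akt, with -0.057 ± 0.045 (limma unadjusted p = 0.230). Further probe sets of listed genes were looked at after their values were seen. For Akt2, over both experiments the brighter one differed by -0.0052 (limma unadjusted p = 0.919) and probe set 10551393 by -0.127 (limma unadjusted p = 0.0408). In experiment 2 the brighter one differed by -0.040 (limma unadjusted p = 0.553) and 10551393 by -0.184 (limma unadjusted p = 0.0226). A dimmer probe set of Irs1, 10347792, differed by 0.111 in experiment 2 (limma unadjusted p = 0.0479), and one of Socs3, 10383010, by 0.158 in experiment 1 (limma unadjusted p = 0.0241). One of Socs2, 10372069, had a difference between the experiments of 0.224 (limma unadjusted p = 0.0208).

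Of 7 mTOR complex subunits other than Mtor, 1 was lower in each experiment, and they were different genes. Rictor, which defines mTOR complex 2, had log2 levels of 9.81 and 9.78 in the ethanol pools of experiment 1, against 10.05 and 9.96 on the controls, without overlap. Its difference was -0.209 ± 0.063 in experiment 1 (limma unadjusted p = 0.00645, adjusted p = 0.386) and 0.0075 ± 0.051 in experiment 2. The difference between the experiments was 0.217 (limma unadjusted p = 0.0213, adjusted p = 0.701). Prr5, also of mTOR complex 2, differed by -0.019 in experiment 1 and -0.178 in experiment 2 (limma unadjusted p = 0.0265).

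All 14 genes of the TSC-Rheb and amino acid arm, which sets the activity of mTOR complex 1, had negative differences over both experiments, where 77.5% of probe sets in the top 25% by mean level and 77.3% in the next 25% did. Their median was -0.061, beside -0.0083 for all probe sets and -0.039 and -0.051 for those levels, and 3 were lower at an unadjusted limma p under 0.05. Rragb, a Rag GTPase that brings mTOR complex 1 to the lysosome, had log2 levels of 10.59 and 10.63 in the ethanol pools of experiment 1, against 10.78 and 10.66 on the controls. In experiment 2 it had 10.47, 10.63 and 10.55 on the ethanol arrays, against 10.75, 10.77 and 10.81 on the controls. The groups did not overlap in either experiment. The difference over both was -0.182 ± 0.047, the smallest p of the 94 genes (limma unadjusted p = 0.00199, adjusted p = 0.306).

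Tbc1d7, the small subunit of the TSC complex, differed by -0.233 ± 0.073 over both (limma unadjusted p = 0.00726), with -0.148 in experiment 1 and -0.290 in experiment 2. Nprl3, of the GATOR1 complex that restrains the Rag GTPases, differed by -0.117 ± 0.041 over both (limma unadjusted p = 0.0146). Tsc2, the GTPase-activating subunit of the TSC complex and a target of Akt, differed by -0.142 ± 0.064 in experiment 1 (limma unadjusted p = 0.0473) and by 0.00029 in experiment 2.

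Downstream of mTOR complex 1, 1 of 8 effectors was lower in experiment 1. This was Rps6kb2, a ribosomal S6 kinase, with -0.259 ± 0.092 (limma unadjusted p = 0.0162) and -0.034 in experiment 2. Of 10 Akt substrates, 2 were lower in experiment 1, 1 in experiment 2 and 2 over both. Foxo3, a transcription factor that Akt keeps out of the nucleus, had -0.272 ± 0.096 in experiment 1 (limma unadjusted p = 0.0160), -0.092 in experiment 2 and -0.164 ± 0.064 over both. Tbc1d4, a Rab regulator of glucose transporter traffic, had -0.236 ± 0.067, -0.078 and -0.141 ± 0.046 (limma unadjusted p over both = 0.00974). Foxo4, of the same family as Foxo3, had -0.034 in experiment 1 and -0.138 in experiment 2 (limma unadjusted p = 0.0363).

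All 8 energy and stress brakes on mTOR complex 1 also had negative differences over both experiments, with a median of -0.061 beside the same shares and medians of the table. Prkaa1, a catalytic subunit of AMP-activated kinase, had -0.172 ± 0.083 in experiment 1, -0.135 ± 0.067 in experiment 2 and -0.150 ± 0.051 over both (limma unadjusted p = 0.0115, adjusted p = 0.326). Prkab1, a regulatory subunit of the same kinase, had -0.118, -0.219 and -0.178 ± 0.066 (limma unadjusted p over both = 0.0194).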

How the data were processed

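Whole-brain RNA from 10 pools of mice (2 ethanol and 2 control arrays in experiment 1, 3 and 3 in experiment 2) was hybridized to Affymetrix whole-transcript arrays, from 200 ng of total RNA per array, per the labels' protocols. The deposited values are log2 levels per probe set (35556 on each of 10 arrays, 0 missing). Per the submitters' processing notes, Partek 6.6 was used. How background, normalization and batches were handled is not given in the sources used here, but experiment means were equal for every probe set, a trace of a step that removed the difference between experiments. Whether that step also altered the spread within an experiment is not given either, and the p-values take the deposited spread as it stands. The number of arrays limits the precision.

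Of 23410 probe sets in the platform annotation, 21789 carried 1 symbol and were tested, and 1621 carried several and were not named. Entrez identifiers in the RefSeq table changed 0 symbols. Arrays were grouped by their titles. Fits were made with limma 3.58.1 in R 4.3.3 (lmFit and eBayes, Benjamini-Hochberg adjustment at 0.05). A mean for each of the 4 groups gave the differences within experiments and their contrast (6 residual degrees of freedom, prior 5.45). Terms for experiment and treatment gave the difference over both (7, prior 5.57). The procedure was tested on simulated data with independent noise per probe set, without shifts of whole arrays or a lean by level. The 8 genes, the wider list and the markers were chosen with earlier results of these data known, so counts stand beside the same count over all probe sets and no list was tested. Of the wider list, up to 4 genes per role were named, those with the smallest unadjusted p under 0.05 in either experiment or over both, or the 1 with the smallest p over both. Alternatives were quantile normalization, median centring, a filter on dim probe sets, all probe sets, a variance trend, array weights, a replicate block, each experiment fitted alone, and each array left out. Promoters came from RefSeq on GRCm38.p6, and figures were drawn with matplotlib 3.10.9.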

Additional observations from a re-analysis of the deposited data

How the results depend on the processing

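Across 29 member results (a probe set in a comparison), 14 kept their sign in all alternatives run, 43 of 511 alternative values had the opposite sign, and the lowest adjusted limma p of a member in any alternative was 0.245. These results took every member probe set within each experiment and over both, but only Insr for the difference between the experiments. Insr was the only member with an unadjusted limma p under 0.05 for that difference. Where a value below changed sign or side of a threshold, the cause was not tested. After quantile normalization the difference was 0.035 for Igf1 in experiment 1, 0.013 for Igf1r in experiment 2 and 0.0016 for Insr 10576696 over both. It was then 0.023 for Pik3ca in experiment 1 and 0.029 over both, and 0.0028 for Pik3r1 in experiment 2 and 0.022 over both. After median centring it was -0.024 for Igf1 in experiment 2 and -0.025 over both, -0.025 for Mtor over both and -0.037 for Pik3ca in experiment 2. With array weights it was -0.0017 for Igf1 and 0.014 for Irs2 in experiment 2, and 0.0021 for Pik3ca over both. Leaving out 1 array at a time gave -0.167 to 0.0037 for Akt1 in experiment 1. For Igf1 it gave -0.138 to 0.102 in experiment 1, -0.046 to 0.051 in experiment 2 and -0.033 to 0.042 over both. It gave -0.047 to 0.0080 for Igf1r and -0.113 to 0.090 for Irs2 in experiment 2. Over both experiments it gave -0.063 to 0.0037 for Insr 10576692, -0.056 to 0.0074 for Insr 10576696 and -0.019 to 0.017 for Mtor. For Pik3ca it gave -0.015 to 0.028 in experiment 2 and -0.014 to 0.0095 over both, and for Pik3r1 -0.061 to 0.131 in experiment 1 and -0.037 to 0.022 over both.

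Member probe sets lower in experiment 1 at an unadjusted limma p under 0.05 numbered 0 with quantile normalization, array weights or each experiment fitted alone, 1 with median centring or all probe sets, and 0 to 2 with 1 array left out. In experiment 2 they numbered 1 (Akt1) with median centring, a variance trend, array weights or that experiment alone, and 0 to 1 with 1 array left out. Over both they numbered 0 with quantile normalization and 0 to 1 with 1 array left out. Members higher for the difference between experiments numbered 0 with quantile normalization or median centring, 1 with array weights and 0 to 2 with 1 array left out. Deviations of same-numbered arrays had correlations of -0.052 in experiment 1 and 0.0062, -0.146 and 0.230 in experiment 2. Arrays of different numbers were not compared, so these values cannot settle whether replicate numbers pair the arrays. With replicate number as a block, 0 members were lower in experiment 1 and 0 higher for the difference between experiments, while Akt1 over both experiments stayed at -0.105 (limma unadjusted p = 0.046).

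Of the wider list, median centring gave 20 genes lower in experiment 2 and 25 over both, with list medians of -0.086 and -0.074. Genes higher numbered 0 in experiment 1 with the filter on dim probe sets or that experiment alone, and 2 in experiment 2 with array weights. With 1 array left out, 5 to 14 were lower and 1 to 3 higher in experiment 1, with medians of -0.074 to -0.0087, and 1 to 2 were higher in experiment 2 and over both. Probe sets at adjusted p under 0.05 numbered 1 for experiment 1 fitted alone and 2 for experiment 2 with array weights. With 1 array left out they numbered 0 to 235 in experiment 1, 0 to 1 in experiment 2, 0 to 1 over both and 0 to 94 for the difference between experiments. The 235 and the 94 came without ethanol array 1 of experiment 1, where the lone ethanol array, like the lone control without a control array of experiment 1, is assumed to vary like the other groups. Small pools and few arrays limit what could be seen: intervals over both experiments reached 0.229 log2 units below 0.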
